A study of Rattus norvegicus with 8 samples.

Results

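The genes described here encode the growth factors, receptors and close partners of 5 signalling families: FGF, EGF, IGF, PDGF, and VEGF with the angiopoietins. They were taken from the deposited table of a rat microarray by a rule on gene symbols: names beginning with Fgf, Fgfr, Igf, Igfbp, Pdgf, Pdgfr or Vegf, the sprouty genes Spry1 to Spry4, the Erbb receptors and neuregulins, both angiopoietins, and the named ligands and receptors Egf, Egfr, Areg, Ereg, Btc, Tgfa, Hbegf, Kdr, Flt1 and Igf1r. The rule found 65 probes for 64 of the 21557 genes in the table, and the table holds 22523 probes. Vegfb was the one gene with more than 1 probe. By family, 29 probes belonged to the FGF genes, 12 to the EGF genes, 12 to the IGF genes, 5 to the PDGF genes and 7 to the VEGF and angiopoietin genes.

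The study compared enamel organs, the epithelial tissue that makes tooth enamel, at the secretory stage, when enamel matrix is laid down, with those at the maturation stage, when the matrix is removed and mineral crystals thicken. Both came from the mandibular incisors of 4 male rats, aged 4 weeks and labelled as the Wistar strain (Wistar Hannover in the methods), so that each rat gave 1 secretory and 1 maturation sample. Total RNA of each of the 8 samples was hybridized to its own Illumina RatRef-12 v1 array, which reads a probe on many beads. The layer was peeled from freeze-dried incisors along a reference line, and the methods describe it as holding mostly enamel organs of both stages.

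Growth factors of these families are secreted or membrane-bound ligands that pair receptor tyrosine kinases at the cell surface and switch on the Ras-MAP kinase, PI3 kinase and phospholipase C routes inside the cell. Most FGF ligands need heparan sulfate chains to bind, while the hormone-like ones use klotho proteins, IGF ligands are held and released by a set of secreted binding proteins, and EGF-type ligands are cut from the cell membrane before they act at a distance. In the continuously growing rodent incisor, FGF signals between epithelium and mesenchyme and their sprouty inhibitors are known for setting where enamel-forming cells arise, while VEGF and angiopoietins act on the blood vessels that lie beside the enamel organ.

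Every value below called a normalized log2 signal is the bead signal after background correction, addition of an offset of 16, quantile normalization between arrays and log2 transformation. Calls needed both an adjusted p below 0.05 (limma, Benjamini-Hochberg over all 22523 probes) and a 1.8-fold or larger change. Where none of the 4 arrays of a stage had a detection p below 0.05, the probe counts as undetected there, and its fold is then a lower bound, measured from the lowest normalized signal of a detected probe on those arrays. Signals of different probes are not comparable as levels, since each probe has its own affinity. Of the 65 probes, 27 were detected on all 8 arrays, 33 on at least 1 array of each stage, 6 on maturation arrays alone, 2 on secretory arrays alone, and 24 on no array. Over the whole table, 9011 probes were detected on no array. The deposited signals of an array summed to 13355073 to 16122665 at maturation and 11881691 to 12046793 in secretory samples, and 8 arrays limit the precision of what follows.

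Stage markers were read first. Enam, which encodes the enamel matrix protein enamelin, read 11.98, 12.03, 11.94 and 11.98 on the secretory arrays of rats 1 to 4 and 9.08, 5.17, 5.53 and 8.22 on the maturation arrays. Maturation arrays 1 and 4 therefore held more of this secretory transcript than maturation arrays 2 and 3, and the counts of calls are also given without them. Klk4, which encodes the protease of maturing enamel, rose 189-fold, and the 3 maturation ameloblast markers found were all called higher, with normalized signals, on the linear scale with the offset removed, that summed to 13941 to 16346 in the maturation samples, beside 254 to 349 in the secretory ones. The 4 secretory ameloblast markers summed to 30617 to 52911 and 58593 to 63345 respectively, and 2 of them, Enam and Mmp20, were called lower.

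Of the 65 growth factor and receptor probes, 14 (21.5%) were called changed, against 7.75% of all probes on the array. Among probes detected on at least 1 array, the shares called were 34.1% of the growth factor and receptor probes and 12.9% over the whole table. Of the 14 called, 10 were higher in the maturation stage (4.60% of all probes) and 4 were lower (3.15% of all probes). Tgfa, Igfbp2, Vegfa, Fgfr3, Fgfrl1, Fgf7, Igf1r, Igfbp3, Egfr and Igf2bp3 rose, and Angpt1, Igfbp6, Fgf16 and Spry1 fell. In all 14 the stages did not overlap, and the difference therefore had the same sign in 4 of 4 rats. The thresholds for a call favour such a separation, so it is no further support. Of all probes, called or not, 27.7% had stages that did not overlap. At an adjusted p below 0.05 without the fold threshold, 22 of the 65 probes passed, against 26.9% of all probes. The median log2 fold change of the 65 probes was 0.03, beside -0.01 over all probes. In RNA from a whole tissue layer, a lower signal from fewer cells of one type cannot be told apart from less RNA per cell.

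**Figure D1:**
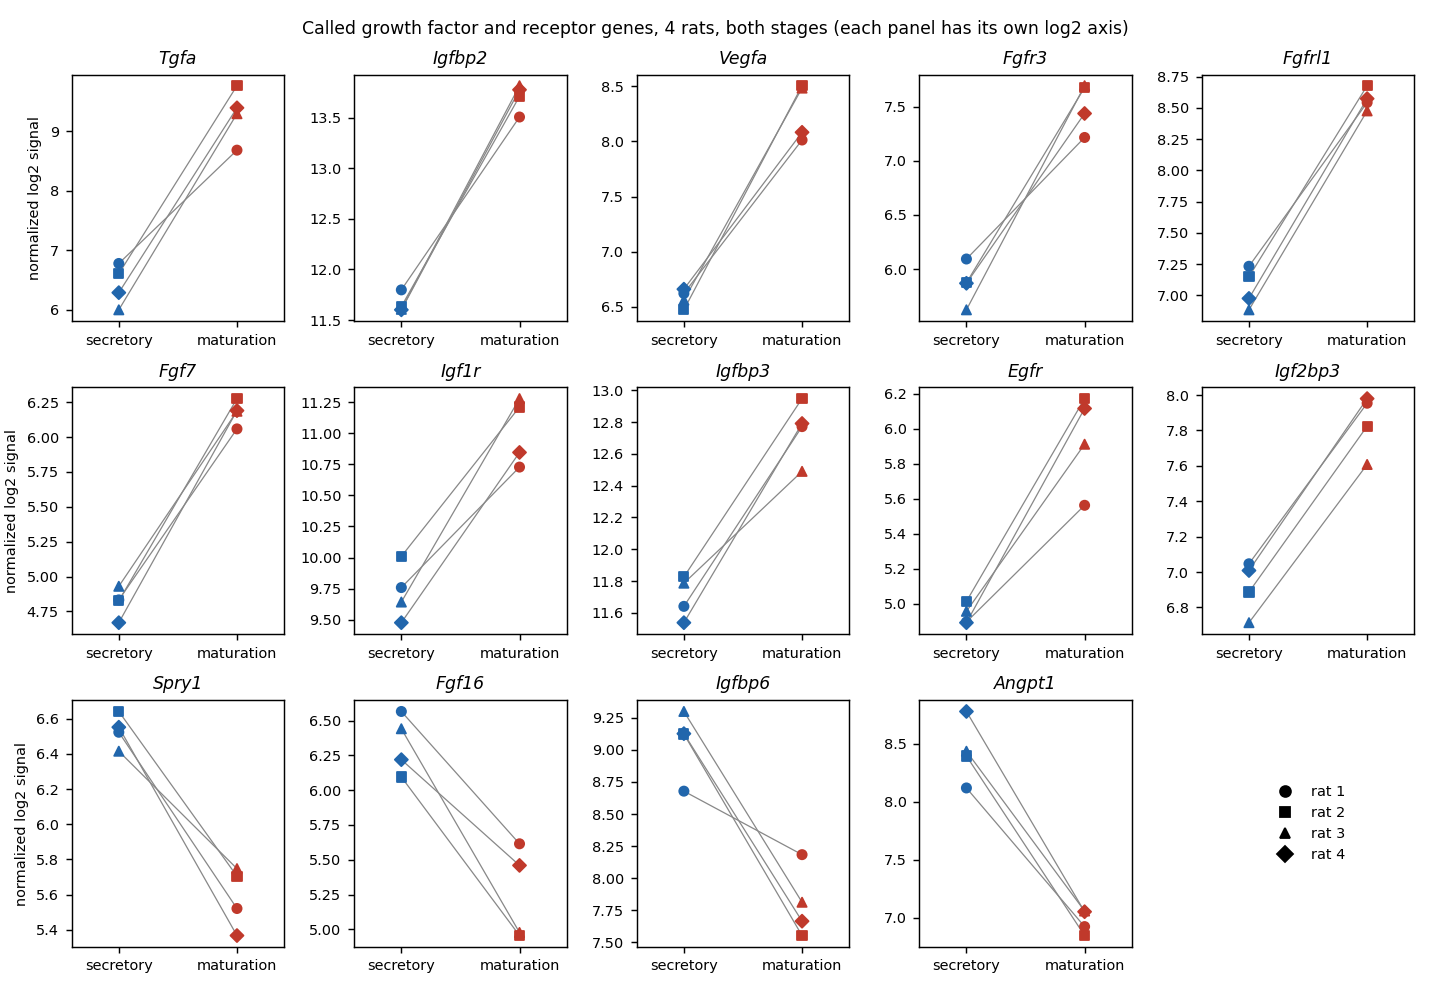
Normalized log2 signals of the 14 called genes in the secretory (blue) and maturation (red) stage, with a line joining both samples of a rat and 1 marker shape per rat; each panel has its own log2 axis. Every line rises in the first 10 panels and falls in the last 4, and in no panel do the stages overlap.

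The sequences just before the start of 4 of these genes are shown to give the context in which the transcripts begin: those of Tgfa and Igfbp2, with the largest rises, and of Igfbp6 and Spry1, both of which fell, each detected on all 8 arrays. Each run is the 250 bases before the annotated start in RefSeq's GRCr8 assembly, written 5′ to 3′ on the strand of the gene, which was the plus strand for all 4. The windows are chr4:120175469-120175718 for Tgfa, chr9:81864561-81864810 for Igfbp2, chr7:135154669-135154918 for Igfbp6 and chr2:122485097-122485346 for Spry1. Capitals mark matches, on either strand, to any of 6 short motifs, none of which contains another. The core promoter motifs searched were TATAAA, which some promoters use to place the start, the Sp1-binding box GGGCGG, and CCAAT, bound by the factor NF-Y. The signal-linked motifs were the hypoxia response core ACGTG, the AP-1 site TGANTCA for Fos and Jun proteins, and the site CCGGAA for ETS factors.
Tgfa: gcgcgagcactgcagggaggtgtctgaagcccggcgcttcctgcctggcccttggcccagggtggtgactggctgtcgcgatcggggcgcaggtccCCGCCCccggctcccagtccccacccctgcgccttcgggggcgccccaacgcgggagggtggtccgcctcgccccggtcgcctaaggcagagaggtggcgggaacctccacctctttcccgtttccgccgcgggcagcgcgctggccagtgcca
Igfbp2: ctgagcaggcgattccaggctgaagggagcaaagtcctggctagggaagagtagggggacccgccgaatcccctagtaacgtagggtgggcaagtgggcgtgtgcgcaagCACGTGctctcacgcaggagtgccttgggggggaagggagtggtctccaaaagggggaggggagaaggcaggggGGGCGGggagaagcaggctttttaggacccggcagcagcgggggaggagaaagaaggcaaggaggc
Igfbp6: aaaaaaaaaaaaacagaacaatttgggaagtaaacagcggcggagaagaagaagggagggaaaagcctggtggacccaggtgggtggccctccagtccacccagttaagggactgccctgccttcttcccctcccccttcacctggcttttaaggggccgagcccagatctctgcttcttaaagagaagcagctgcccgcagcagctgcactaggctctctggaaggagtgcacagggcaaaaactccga
Spry1: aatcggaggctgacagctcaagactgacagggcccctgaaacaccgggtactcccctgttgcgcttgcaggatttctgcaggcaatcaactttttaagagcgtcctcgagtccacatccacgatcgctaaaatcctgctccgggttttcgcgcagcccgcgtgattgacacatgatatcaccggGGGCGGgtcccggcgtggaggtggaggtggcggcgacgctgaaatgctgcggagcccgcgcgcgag
The Tgfa, Igfbp2 and Spry1 windows each held 1 GGGCGG match, the Igfbp2 window also held CACGTG, which contains ACGTG on both strands, and the Igfbp6 window held none of the 6 motifs. The 4 windows had a GC content of 74.4%, 64.0%, 54.8% and 60.8%, with a median of 51.2% over all promoters of this length. Of the 14 called genes 13 had an entry, Angpt1 being the exception, and Vegfa had 2 annotated starts, which made 14 windows. Among those 14 windows, 9 held GGGCGG (30.5% of all 33469 windows did), 5 held ACGTG (16.6%), 4 held CCAAT (34.0%), 2 held TATAAA (12.9%), 2 held CCGGAA (12.6%) and none held TGANTCA (6.34%). The 5 windows with ACGTG were those of Igfbp2, Igf1r, Igf2bp3, Egfr and Fgfrl1. Over the 59 windows of all the growth factor and receptor genes with an entry, 37 held GGGCGG and 15 held ACGTG, so a GGGCGG match was common in the whole set. A match describes letters and is not evidence of binding.

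Within the FGF family, the ligands were mostly below detection. Of 17 probes for secreted FGF ligands, 13 were detected on no array: Fgf2, Fgf3, Fgf4, Fgf5, Fgf6, Fgf9, Fgf10, Fgf15, Fgf17, Fgf20, Fgf21, Fgf22 and Fgf23. The 4 homologous factors that stay inside the cell, Fgf11, Fgf12, Fgf13 and Fgf14, were undetected as well. Fgf21 passed the adjusted p although it was below detection everywhere, at a log2 difference of 0.21 (limma adjusted p = 0.0439). Fgf7 rose and Fgf16 fell, and these were the ligands called.

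Fgf7 (Entrez Gene 29348, chromosome 3), the keratinocyte growth factor that mesenchymal cells send to epithelium, read 6.06, 6.28, 6.18 and 6.19 on maturation arrays 1 to 4 and 4.83, 4.83, 4.93 and 4.67 on secretory arrays 1 to 4. The stages did not overlap, but the secretory values lay below the lowest signal of a detected probe, so their spread is that of background. Since Fgf7 was undetected on every secretory array, the rise was at least 2.19-fold (fitted log2 difference 1.36 ± 0.0735 SE, limma adjusted p = 1.00e-06). Fgf16 (Entrez Gene 60464, chromosome X), a ligand of the Fgf9 subfamily, went the other way, with 5.61, 4.96, 4.98 and 5.46 in maturation-stage organs and 6.57, 6.09, 6.44 and 6.22 in secretory-stage organs. It was lower by 2.11-fold, at a log2 difference of -1.08 ± 0.167 SE (limma adjusted p = 8.76e-04). The 2 maturation arrays with more Enam, 1 and 4, also held more Fgf16, and with maturation arrays 2 and 3 alone against the 4 secretory arrays the difference was -1.31; whether secretory tissue on those arrays played a part was not tested. Fgf1 and Fgf8 were each detected on 1 secretory array and passed no threshold.

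Among the receptors, Fgfr3 and Fgfrl1 rose. Fgfr3 (Entrez Gene 84489, chromosome 14), one of the FGF receptor tyrosine kinases, read 7.21, 7.68, 7.69 and 7.44 on the maturation arrays, against 6.09, 5.87, 5.63 and 5.87 on the secretory arrays. Rat 1 had both the lowest maturation value and the highest secretory value, and the stages still lay apart. The rise was 3.11-fold (log2 difference 1.64 ± 0.128 SE, limma adjusted p = 1.10e-05). Fgfrl1 (Entrez Gene 360903, chromosome 14), a receptor-like protein that binds FGFs but lacks the kinase domain, read 8.54, 8.68, 8.48 and 8.57 against 7.23, 7.15, 6.88 and 6.98. Its maturation values were tight, with an SD of 0.0838 over 4 arrays, and the rise was 2.84-fold (log2 difference 1.51 ± 0.0864 SE, limma adjusted p = 1.50e-06).

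The other FGF receptors did not follow. Fgfr2, the main partner of Fgf7 in epithelia, read 7.29 ± 0.153 on the maturation arrays and 7.42 ± 0.105 on the secretory arrays (SD, n = 4 each), an overlap of the stages and a log2 difference of -0.13 ± 0.0885 SE. Fgfr4 passed the adjusted p alone, at a log2 difference of -0.36 (limma adjusted p = 0.0200), but not with cyclic loess, median scaling (-0.11), normexp without negative controls, the test named in the methods or without maturation array 2, 3 or 4 or secretory array 1, and its sign turned to 0.09 without normalization between arrays. Fgfr1op2, named for a fusion partner of an FGF receptor and not itself a receptor, had a difference of 0.03. Fgfr1 was not analysed here.

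Of the sprouty inhibitors, which are induced by receptor signalling and damp the Ras-MAP kinase route, Spry1 fell. Spry1 (Entrez Gene 294981, chromosome 2) read 5.52, 5.70, 5.75 and 5.37 at maturation and 6.52, 6.64, 6.41 and 6.55 in secretory samples. All 4 maturation values lay below 6.41, the lowest secretory value, and the fall was 1.93-fold (log2 difference -0.95 ± 0.0928 SE, limma adjusted p = 4.71e-05). Spry2 was detected on 2 maturation arrays and 1 secretory array, with overlapping stages and a difference of 0.20, and Spry4 on none. Spry1 and Fgf16 missed the fold threshold without background correction (-0.40 and -0.41), with an offset of 50 (-0.62 and -0.66), with normexp without negative controls (-0.76 and -0.85) and without normalization between arrays (-0.52 and -0.69). Median scaling also ended the Spry1 call (-0.72), and Fgf7 missed the fold without background correction (0.49) and with an offset of 50 (0.77). The Fgfr3 difference was 0.87 without background correction.

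**Figure D2:**
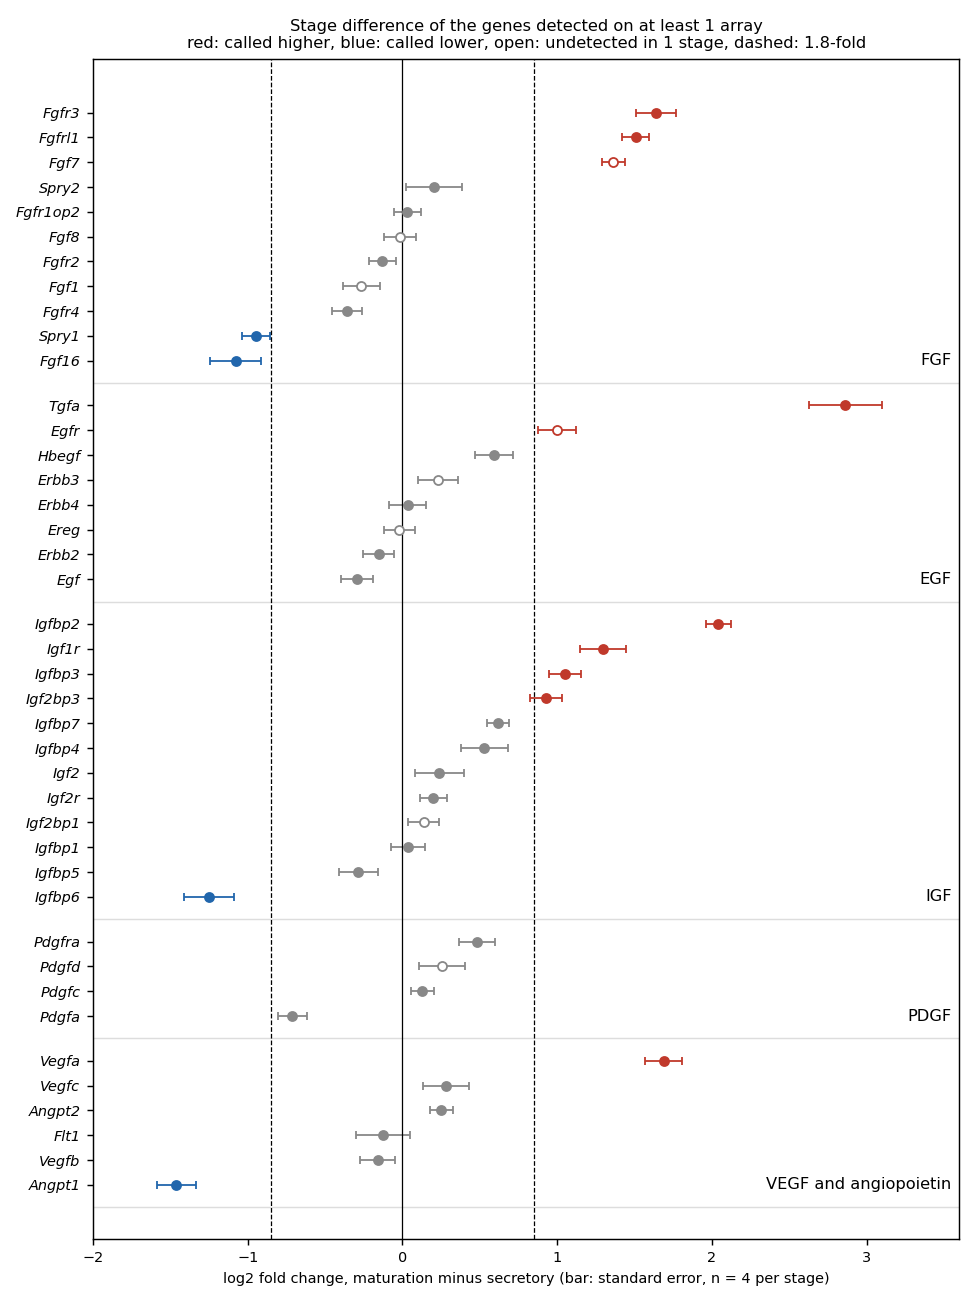
Log2 fold change, maturation minus secretory, of the 41 probes detected on at least 1 array, grouped by family, with bars of 1 standard error (4 arrays per stage) and dashed lines at 1.8-fold. Red points were called higher (10) and blue points lower (4), open points were undetected in 1 stage, and the largest difference is that of Tgfa at 2.86.

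The EGF family held the largest difference of all 65 probes, that of Tgfa, together with a rise of its receptor Egfr. Tgfa (Entrez Gene 24827, chromosome 4), transforming growth factor alpha, is a membrane-anchored ligand of the EGF receptor. It read 8.68, 9.76, 9.29 and 9.39 in the maturation samples, beside 6.777, 6.605, 5.999 and 6.287 in the secretory ones. The nearest values of the stages, both from rat 1, were 8.68 and 6.777. The rise was 7.28-fold, at a log2 difference of 2.86 ± 0.233 SE (limma adjusted p = 1.41e-05), and it stayed between 2.70 and 3.06 when any 1 array was left out.

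Egfr (Entrez Gene 24329, chromosome 14), the receptor for Egf, Tgfa, Hbegf, amphiregulin and other ligands, read 5.56, 6.17, 5.91 and 6.12 in maturation-stage organs and 4.90, 5.01, 4.96 and 4.89 in secretory-stage organs. It was detected on all 4 maturation arrays and on no secretory array, so the rise was at least 1.86-fold (fitted log2 difference 1.0 ± 0.123 SE, limma adjusted p = 2.02e-04). Maturation array 1 was the lowest for Egfr, as it was for Tgfa. The Egfr call was lost under every other background setting tried, at 0.78 with normexp without negative controls, 0.56 with an offset of 50 and 0.35 without background correction.

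Hbegf, a second membrane-anchored EGF receptor ligand, passed the adjusted p alone, with a log2 difference of 0.59 and no overlap of the stages (limma adjusted p = 0.00468). Egf itself read 6.01 ± 0.190 on the maturation arrays, against 6.30 ± 0.115 on the secretory arrays (SD, n = 4 each) and missed the threshold, at a difference of -0.29. Ereg, which encodes epiregulin, was detected on 2 maturation arrays. Areg, Btc, Nrg1 and Nrg2, which encode amphiregulin, betacellulin and neuregulins, were detected on no array. Erbb2, Erbb3 and Erbb4, the receptors that pair with Egfr or with each other, had differences of -0.15, 0.23 and 0.03 and passed no threshold.

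All 12 IGF family probes were detected on at least 1 array, and 5 (41.7%) were called, beside 7.75% of all probes and 12.9% of all detected probes. The receptor Igf1r, the binding proteins Igfbp2 and Igfbp3 and the RNA-binding protein Igf2bp3 rose, while the binding protein Igfbp6 fell. The ligand Igf2 was not called: it read 12.39, 12.70, 12.88 and 12.50 on the maturation arrays and 11.997, 12.726, 12.505 and 12.294 on the secretory arrays, which overlapped, and the difference was 0.24 ± 0.160 SE. Igf1 was not analysed here.

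Igf1r (Entrez Gene 25718, chromosome 1), the receptor tyrosine kinase for both IGF ligands, read 10.73, 11.21, 11.28 and 10.85 against 9.76, 10.01, 9.64 and 9.48. The lowest maturation value, in rat 1, exceeded the highest secretory value, in rat 2. The rise was 2.45-fold (log2 difference 1.29 ± 0.149 SE, limma adjusted p = 1.35e-04). Igf2r, the receptor that carries Igf2 to lysosomes without a kinase of its own, read 11.47 ± 0.0804 and 11.27 ± 0.166 (SD, n = 4 each), with a difference of 0.20 that missed the threshold although it was positive in 4 of 4 rats.

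The binding proteins hold IGFs outside the cell, and their members moved in opposite directions. Igfbp2 (Entrez Gene 25662, chromosome 9) read 13.51, 13.71, 13.82 and 13.78 at maturation and 11.80, 11.63, 11.61 and 11.60 in secretory samples. The rise was 4.12-fold (log2 difference 2.04 ± 0.0819 SE, limma adjusted p = 1.86e-07), and of the 14 called genes this one had the smallest adjusted p. Across the processing alternatives it lay between 2.01 and 2.36. Igfbp3 (Entrez Gene 24484, chromosome 14), the main IGF carrier of serum, read 12.77, 12.95, 12.49 and 12.79 against 11.64, 11.83, 11.79 and 11.54. That is a rise of 2.07-fold (log2 difference 1.05 ± 0.105 SE, limma adjusted p = 5.26e-05), with the stages apart on every array.

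Igfbp6 (Entrez Gene 25641, chromosome 7), which prefers Igf2 over Igf1, read 8.18, 7.55, 7.81 and 7.67 in the maturation samples, beside 8.68, 9.12, 9.30 and 9.13 in the secretory ones. It fell 2.38-fold (log2 difference -1.25 ± 0.161 SE, limma adjusted p = 2.70e-04). Rat 1 held the highest maturation value and the lowest secretory value, and its difference of -0.49 was smaller in size than those of rats 2 to 4, from -1.57 to -1.46. Without normalization between arrays the difference was -0.71, below the fold threshold. Of the remaining binding proteins, Igfbp7 and Igfbp4 passed the adjusted p alone, at 0.62 and 0.53 (limma adjusted p = 1.33e-04 and 0.0269). That of Igfbp4 was lost with the test named in the methods, with maturation arrays 2 and 3 alone, and without maturation array 2 or 3 or secretory array 1, 3 or 4. Igfbp1 and Igfbp5 had differences of 0.03 and -0.29 and passed no threshold.

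Igf2bp3 (Entrez Gene 312320, chromosome 4), which binds the Igf2 messenger RNA among others, read 7.95, 7.82, 7.61 and 7.98 against 7.05, 6.89, 6.71 and 7.01. The within-rat differences were close to each other, from 0.89 to 0.97. The rise was 1.90-fold (log2 difference 0.93 ± 0.103 SE, limma adjusted p = 1.05e-04), near the fold threshold, and the call was lost without background correction (0.60), with an offset of 50 (0.77), with normexp without negative controls (0.84) and with maturation arrays 2 and 3 alone (0.80). Igf2bp1 was detected on 1 maturation array and was not called.

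None of the 5 PDGF probes analysed here was called, although 2 passed the adjusted p; Pdgfrb is not among these 5 and was not analysed here. Pdgfa, a ligand that epithelia send to mesenchyme, read 10.89, 10.52, 10.52 and 10.63 in maturation-stage organs and 11.47, 11.25, 11.36 and 11.34 in secretory-stage organs. The stages did not overlap, and the log2 difference was -0.71 ± 0.0923 SE (limma adjusted p = 2.86e-04), short of 1.8-fold. Its receptor Pdgfra, a kinase of mesenchymal cells, read 10.43, 10.86, 10.78 and 10.96 against 10.11, 10.35, 10.26 and 10.40, a difference of 0.48 ± 0.115 SE (limma adjusted p = 0.0114). Ligand and receptor thus differed in opposite directions between the stages, and without normalization between arrays the values were -0.26 and 0.97. Pdgfc and Pdgfd had differences of 0.13 and 0.25 that passed no threshold, and Pdgfb was detected on no array.

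In the VEGF and angiopoietin family, Vegfa rose and Angpt1 fell. Vegfa (Entrez Gene 83785, chromosome 9), the principal signal for vessel growth and permeability, read 8.01, 8.50, 8.48 and 8.08 on the maturation arrays, against 6.62, 6.47, 6.56 and 6.66 on the secretory arrays. Maturation arrays 1 and 4, those with more Enam, were the lower pair, and all 4 lay well above the secretory values, whose SD was 0.0815. The rise was 3.23-fold (log2 difference 1.69 ± 0.119 SE, limma adjusted p = 5.63e-06). Angpt1 (Entrez Gene 89807, chromosome 7), the ligand that steadies vessels through the receptor Tek, read 6.92, 6.85, 7.06 and 7.05 against 8.12, 8.39, 8.44 and 8.78. It fell 2.76-fold (log2 difference -1.46 ± 0.126 SE, limma adjusted p = 2.02e-05). The Vegfa difference was 1.10 without background correction, and that of Angpt1 was -0.93 without normalization between arrays.

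Angpt2, which can oppose Angpt1 at the same receptor, passed the adjusted p alone at a small difference of 0.25 (limma adjusted p = 0.0331), but not with the rat as a block (limma adjusted p = 0.0604), with normexp without negative controls, with the test named in the methods or without maturation array 2 or 3 or secretory array 1 or 3. Vegfc, the signal for lymphatic vessels, read 8.65 ± 0.0477 and 8.37 ± 0.346 (SD, n = 4 each), a difference of 0.28 that passed no threshold. One Vegfb probe was detected on all 8 arrays, with a difference of -0.16, and the other on none, so the probes of this gene disagree on detection. Flt1, a receptor for Vegfa, was detected on 2 arrays of each stage, with overlapping stages. Kdr was not analysed here. Tek, the angiopoietin receptor, is in the list of pathway genes and read 7.03 ± 0.0243 and 6.95 ± 0.105 (SD, n = 4 each), a difference of 0.08.

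**Figure D3:**
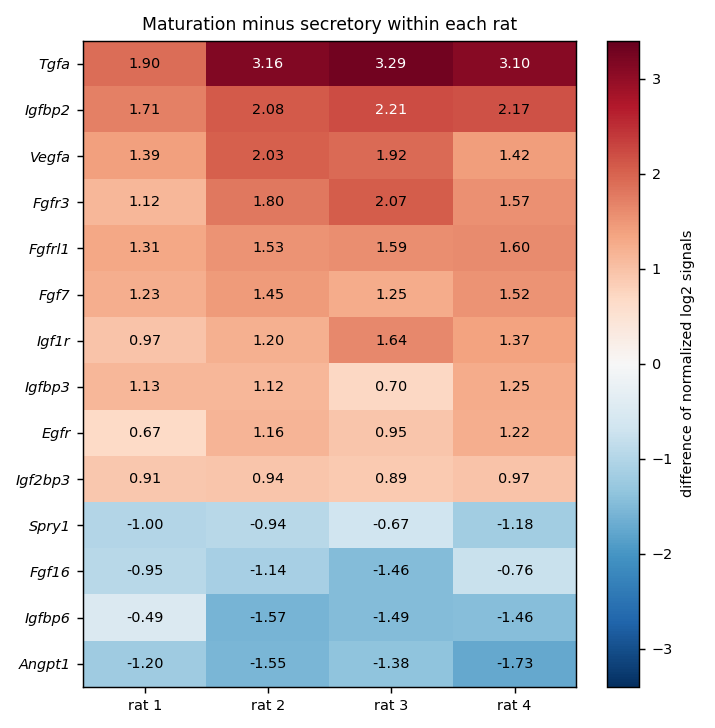
Difference of normalized log2 signals, maturation minus secretory, within each of the 4 rats for the 14 called genes, with red for higher and blue for lower in the maturation stage. Tgfa ranges from 1.90 in rat 1 to 3.29 in rat 3, and each row keeps 1 sign across the 4 rats; Fgf7 and Egfr are set against secretory signals that were not above background.

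Within rats, the size of the differences was not equal. Rat 1 had the smallest rise of Tgfa (1.90), Igfbp2 (1.71), Vegfa (1.39), Fgfr3 (1.12), Fgfrl1 (1.31) and Igf1r (0.97), and the smallest fall of Angpt1 (-1.20) and Igfbp6 (-0.49). Fgf7 and Egfr are left out of this order, since their secretory signals were not above background. Rat 3 had the smallest rise of Igfbp3 (0.70) and Igf2bp3 (0.89) and the smallest fall of Spry1 (-0.67), and rat 4 the smallest fall of Fgf16 (-0.76). The maturation sample of rat 1 also had the highest Enam signal of its stage, and its part in these smaller differences was not tested. With maturation arrays 2 and 3 alone against the 4 secretory arrays, 12 of the 14 genes were called, 9 higher and 3 lower, while the count over all 22523 probes was 1844, against 1745 with all arrays. Spry1 (-0.79) and Igf2bp3 (0.80) then missed the fold threshold, while Tgfa stood at 3.09, Fgfr3 at 1.79, Vegfa at 1.90 and Igfbp6 at -1.37.

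Genes that act downstream of or around these receptors were counted on a list of 83 genes, 75 of which were found. Of the 75, 62 were detected on at least 1 array and 12 (16%) were called, 10 higher and 2 lower, beside 7.75% of all probes called, 4.60% higher and 3.15% lower. In all 12 the stages lay apart, which the thresholds for a call likewise favour, and they did so for 27.7% of all probes, called or not. The median log2 fold change of the 75 genes was 0.04, beside -0.01 over all probes. At the adjusted p alone, which 26.9% of all probes passed, 21 of the 75 rose and 9 fell. Each of the 6 groups of the list held 1 to 3 called genes, so that 1 gene more or less would shift a group's share markedly. The Ras-MAP kinase group (10%) and the PI3 kinase group (9.09%) held 1 called gene each. With maturation arrays 2 and 3 alone, 15 pathway genes were called, 13 higher and 2 lower, Spred1, Sdc1 and Pappa being gained.

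The transcriptional targets held 3 called genes of 8 found (37.5%), all early response genes that growth factor signals and other stimuli switch on within minutes. Fos read 6.99, 7.32, 7.18 and 7.39 on the maturation arrays and 4.85, 4.79, 4.68 and 4.64 on the secretory arrays. It was undetected on all 4 secretory arrays, so the rise was at least 4.52-fold (limma adjusted p = 1.39e-07). Egr1 read 8.79, 9.22, 8.76 and 8.81 against 6.98, 7.29, 6.52 and 6.48, a rise of 4.22-fold (limma adjusted p = 2.65e-05). Ier2 rose 2.02-fold. The remaining 5 were not called, with overlapping stages and differences of 0.27 for Jun and -0.22 for Myc, which are early response genes too, and 0.24 for Ccnd1, 0.03 for Etv1 and -0.18 for Etv4.

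Feedback genes held 2 called of 14 (14.3%), beside 7.75% of all probes and 12.9% of all detected probes. Dusp1, a phosphatase of MAP kinases and itself an early response gene, read 11.70, 11.73, 11.60 and 11.90 against 9.86, 10.25, 9.98 and 9.86, a rise of 3.35-fold (limma adjusted p = 1.57e-06). Errfi1, an inhibitor that binds the EGF receptor kinase, read 9.08, 9.28, 8.92 and 9.34 against 7.61, 7.84, 7.55 and 7.47. Its rise was 2.91-fold (limma adjusted p = 6.57e-06), in the same direction as Tgfa and Egfr. Within the docking proteins and adaptors, 2 of 13 (15.4%) were called: Plcg2, a phospholipase C, rose 2.38-fold and Gab1, a docking protein, rose 1.85-fold. The Gab1 call was lost when maturation array 2 (the count for the list was then 10) or secretory array 4 was left out.

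Of 10 genes of the Ras-MAP kinase route found, Rasa1, a GTPase-activating protein that turns Ras off, fell 1.96-fold and was the one called, a call lost with median scaling and without normalization between arrays. Of 11 genes of the PI3 kinase and Akt route, Foxo1 (listed as Foxo1a), a transcription factor that Akt keeps out of the nucleus, rose 2.18-fold and was the one called. Among 19 coreceptors and ligand-handling genes, 3 (15.8%) were called. Gpc3, a heparan sulfate proteoglycan, read 10.43, 9.82, 10.38 and 10.10 at maturation and 12.71, 12.73, 12.78 and 12.68 in secretory samples. The fall was 5.84-fold (log2 difference -2.54 ± 0.125 SE, limma adjusted p = 5.88e-07), larger than the fall of any of the 4 growth factor genes called lower. Sdc4, another heparan sulfate proteoglycan, rose 2.05-fold. The calls of Sdc4, Gab1 and Hif1a were lost under all 3 other background settings, that of Ier2 under 2 of them (an offset of 50 and no background correction), and that of Plcg2 without background correction. Hif1a, the hypoxia factor upstream of Vegfa, read 11.11, 11.27, 11.33 and 11.23 against 10.23, 10.33, 10.33 and 10.64. It rose 1.8-fold, just past the threshold, and lost its call without maturation array 2 or 3 or secretory array 1, 2 or 3.

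**Figure D4:**
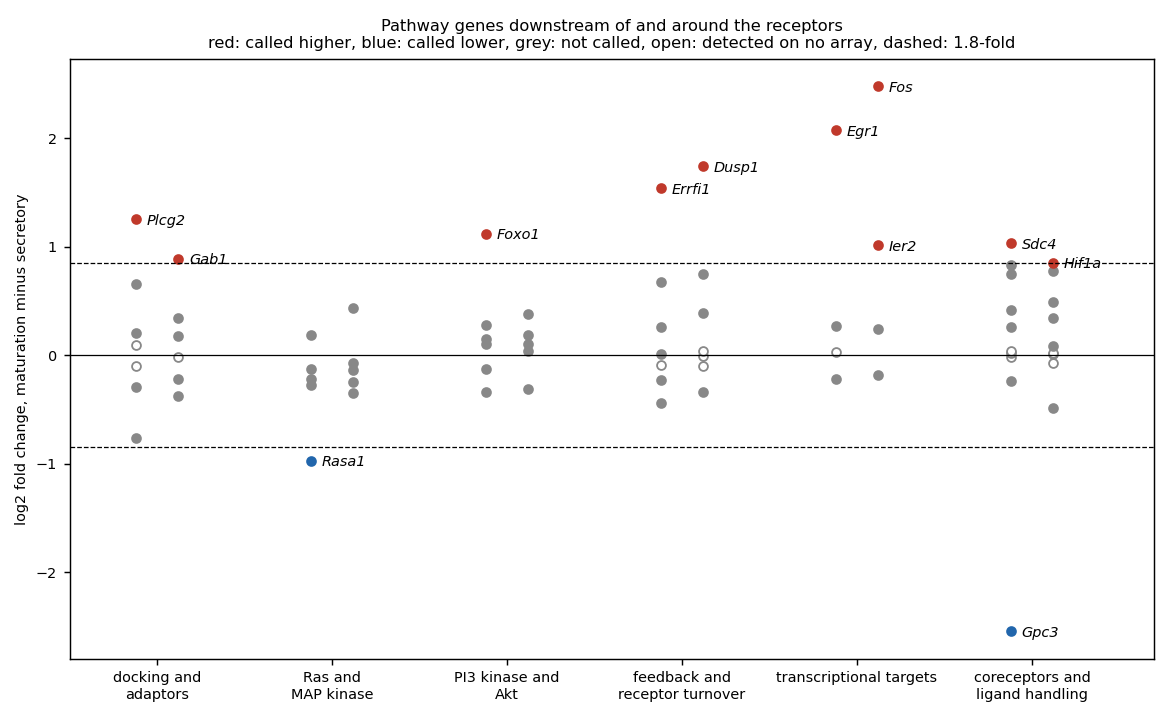
Log2 fold change, maturation minus secretory, of the 75 pathway genes found, in 6 groups, each point a gene and dashed lines at 1.8-fold. The 10 genes called higher are red and the 2 called lower, Rasa1 and Gpc3, are blue; open points were detected on no array.

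Other cell types in the dissected layer were read from marker lists, as summed normalized signals on the linear scale with the offset removed. Such a sum is set mainly by the brightest probes, such as Tagln for pericytes and Pcna for cell cycle genes. It can therefore differ in direction from most genes of its list. Of 9 macrophage and leukocyte markers found, 7 were called higher, and their sum was 9442 to 12227 in the maturation samples, beside 3478 to 4160 in the secretory ones. Cd68, a lysosomal protein of macrophages, rose 4.56-fold. Of 11 endothelial markers, Vwf and Cldn5 were called higher (1.84-fold and 2.15-fold) and Cdh5 and Robo4 were undetected, with sums of 10077 to 12334 and 8322 to 10268. Of 7 pericyte and smooth muscle markers, Rgs5, Cspg4 and Des were called higher, with sums of 2378 to 2811 and 2011 to 2879. Of 8 fibroblast and dental mesenchyme markers, Thy1 was called higher, with sums of 87200 to 93384 and 72357 to 83452.

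Of 6 odontoblast and osteoblast markers, Ibsp rose 3.86-fold and Dspp fell at least 34.0-fold, being undetected in the maturation stage, and the sums were 9304 to 10865 and 4548 to 19199. Sp7, a further marker of that list, was undetected, as was Myh4 of the muscle list. None of the erythroid, skeletal muscle and cell cycle markers found (4, 5 and 4 genes) was called. Their sums were 47887 to 54915 and 41403 to 57642 for erythroid, 130 to 826 and 117 to 483 for muscle, and 6020 to 6405 and 5126 to 6325 for cell cycle genes, maturation before secretory. The cell cycle genes passed the adjusted p alone in both directions: Mki67 (-0.49), Cdk1 (-0.52) and Mcm2 (-0.42) were lower in 4 of 4 rats, and Pcna (0.28) was higher in 4 of 4. The 7 called macrophage markers moved in the same direction as the rising growth factor genes, as did the called endothelial (2 of 11) and pericyte (3 of 7) markers. Endothelial Esam (0.69), Icam2 (0.64) and Egfl7 (0.48) and pericyte Mcam (0.84) and Myh11 (0.60) passed the adjusted p alone. Each of them was higher in 4 of 4 rats. Plvap (-0.28), Tagln (-0.27) and Cnn1 (-0.20) of those lists were lower in 3 of 4 rats without passing the test. Enam, Mmp20 and Dspp moved in the same direction as Angpt1, Igfbp6, Fgf16 and Spry1, whereas Ibsp, of the same list as Dspp, went the other way. The part of these cell types in the growth factor results was not tested.

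The 20 probes that were detected on at least 1 array but passed neither threshold had log2 differences from -0.29 to 0.28, with a median of 0.03. They were those of Fgf1, Fgf8, Fgfr2, Fgfr1op2, Spry2, Egf, Ereg, Erbb2, Erbb3, Erbb4, Igf2, Igf2r, Igf2bp1, Igfbp1, Igfbp5, Pdgfc, Pdgfd, Vegfb, Vegfc and Flt1. A miss of the threshold does not show that these genes were equal between the stages.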

How the data were processed

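Total RNA of 8 enamel organ samples (4 rats, both stages) was measured on Illumina RatRef-12 v1 arrays. Mean bead signals, deposited by the authors in 1 table, are intensity values that were neither corrected for background nor normalized between arrays. The deposited detection p-value of each probe compares it with negative-control beads. The bead software and the genome build are not given in the sources used here. Groups follow the titles and the tissue entries. For maturation replicates 2, 3 and 4 a further label, the source name, gives the secretory stage instead and was not followed; each of the 8 arrays was closer in correlation to its own stage than to the other.

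The limma package (3.58.1, in R 4.3.3) was used: neqc (negative controls inferred from detection p-values, offset 16, quantile normalization, log2), then lmFit and eBayes with stage as the one term and Benjamini-Hochberg adjustment over 22523 probes, without a filter. The steps were tested on simulated data. A gene on a list was read by its probe with the highest mean signal. Promoters and current symbols came from RefSeq tables (GRCr8) by gene ID, which matched 17430 probes, all 65 of the chosen probes among them; 54 of the 64 genes had a promoter entry. Chromosomes are those of the array annotation. Figures were drawn with Python 3.11.15 and matplotlib 3.10.9.

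Each rat gave both samples, so replicate numbers pair them. Over 11233 probes detected on at least 4 arrays, deviations from the stage means correlated at 0.195, 0.129, 0.219 and 0.234 within rats, against -0.0755 to -0.0416 on average with other rats. The methods name a two-tailed Student test and do not state pairing, so the comparison was unpaired, with a block for the rat tried besides.

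Every gene matched is named: called genes with their values on every array, those past the adjusted p alone with their fold change, detected genes past neither by range, and undetected ones by name. The genes, lists and tests were chosen with earlier results of these data known. Alternatives were other background corrections and offsets, cyclic loess, median scaling, a detection filter, the Student test, the rat as a block, lower bounds for undetected probes, no fold threshold, 1 probe per gene, and each array left out. No normalization between arrays, maturation arrays 2 and 3 alone, and 6 probes added by current symbol were chosen after seeing the data.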

Additional observations from a re-analysis of the deposited data

Results flagged for a closer look

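In 74 sets of 4 arrays (each gene in each stage where it was detected), the highest or lowest array was set against the other 3, and 2 stood apart by Dixon's criterion, where chance gives about 3.7. Igfbp2 read 11.80 on secretory array 1 and 11.60 to 11.63 on the others of that stage, all below the maturation values. Erbb4 read 4.99 on secretory array 4 and 5.23 to 5.27 on the others.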

How the results depend on the processing

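Of the growth factor and receptor probes, 14 were called with cyclic loess, the detection filter, the Student test of the methods, lower bounds for undetected probes, 1 probe per gene, the 6 added probes, and with each of the 8 arrays left out in turn (14 to 14). The replicate block for the rat, which the pairing of the samples calls for, gave 14 member calls and 12 pathway calls and changed none of them; it ended the pass of Angpt2 at the adjusted p alone (0.0604). Under other background settings both the member count and the count over all 22523 probes, 1745 otherwise, were lower: 10 (2 of them lower in maturation) and 1523 with normexp without negative controls, 9 (2 lower) and 1263 with an offset of 50, and 9 (2 lower) and 927 without background correction. Median scaling gave 13, with 2075 over all probes. The adjusted p alone gave 22, 16 of them higher. Without normalization between arrays, which moved the median of all probes to 0.13, 15 were called of 2600 over all probes, 14 higher and 1 lower, so that 93.3% were higher instead of 71.4%; Fgf16, Spry1 and Igfbp6 were lost, Hbegf, Igfbp4, Igfbp7 and Pdgfra gained, and Fgfr4 turned to 0.085. Of the pathway genes, 12 by default, 7 were called without background correction (5 higher), 8 with an offset of 50 (6 higher), 9 with normexp without negative controls, 14 with cyclic loess (Nrp1 and Pappa gained), 17 with median scaling (16 higher, 1 lower), 30 by the adjusted p alone (21 higher, 9 lower) and 21 without normalization (20 higher, 1 lower). With 1 array left out they numbered 10 to 15, Hif1a and Gab1 being the genes lost; 15 were called without maturation array 1. The causes of these shifts were not tested. Fgf7 and Egfr, undetected in the secretory stage, and Fgf16, undetected on 1 maturation array, are limited by signal over background.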

Other observations

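The table holds 6 probes whose current symbol, but not the symbol in the file, matches the naming rule: Vegfd, Igf2bp2, Nrg3, Spry3 and the pseudogenes Spry3-ps1 and Fgfr1-ps1. Of these, 5 were detected on no array. Spry3 was detected on 4 maturation and 2 secretory arrays, at 5.18 ± 0.185 and 5.07 ± 0.0960 (SD, n = 4 each). None was called, and their log2 differences lay between -0.06 and 0.11.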
